A study of Caenorhabditis elegans with 12 samples.

Results

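The cytochrome P450 genes of Caenorhabditis elegans were described across 2 genotypes and 2 heme concentrations on Affymetrix arrays. Members were all genes whose symbol has the standard P450 form (cyp, a family number, a subfamily letter and a gene number) and that have a probe set carrying only that symbol. The rule uses names and no expression difference, and it gave 73 genes out of 17138 with such a probe set. Where a gene had several probe sets, the one of highest mean over the arrays was used. The RefSeq annotation of the assembly WBcel235 holds 80 genes with names of this form, and all 73 members are among them. The remaining 7 (cyp-13A9, cyp-13A11, cyp-13A12, cyp-25A3, cyp-25A4, cyp-25A5 and cyp-35D2) have no probe set of their own here, and 2 probe sets that carry several P450 symbols were not named.

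Wildtype worms and hrg-2 mutants were each grown with 4 or 20 µM heme and collected in the middle to late part of L4, the last larval stage. Each of the 4 groups has 3 arrays, numbered 1 to 3 in the titles. HRG-2 sits in membranes of hypodermal cells, the epidermis beneath the cuticle, where it takes part in the use of heme. The comparisons ask what differs without it at low and at higher heme supply. The labels give neither the mutant allele nor the culture medium, and do not state whether replicate arrays are separate cultures. The p-values therefore measure only the spread between these arrays, which may be technical.

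Cytochrome P450s are heme enzymes: a heme held by a cysteine of the protein binds oxygen, and electrons passed from NADPH through P450 reductase drive the oxidation of lipids, hormones and foreign compounds. C. elegans cannot make heme and must take it up, so every P450 protein of the worm depends on heme from the medium. Family numbers place the worm genes in the broad types shared with other animals. The CYP2-type genes (43 members) include families 33, 34 and 35, many of which respond to foreign compounds. The CYP3-type genes (15 members) hold the cyp-13, cyp-25 and cyp-43 families, and mammalian enzymes of this type metabolize drugs and steroids. The CYP4-type genes (13 members) hold the cyp-29, cyp-31, cyp-32, cyp-37 and cyp-42 families, and mammalian enzymes of this type hydroxylate fatty acids. The last 2 members are cyp-44A1, the P450 of mitochondrial type, and cyp-23A1.

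Values are the authors' log2 expression values, and all levels and differences below are on that scale. The lowest value of an array lay between 1.76 and 1.92 and the array medians between 5.74 and 5.93. Member means over the 12 arrays ran from 2.45 to 9.73. A probe set's level reflects its probes as well as its RNA, so levels of different genes were not ranked. Low signal was common: 11 members, among them cyp-35A1, cyp-35A3, cyp-35A4, cyp-35B3 and cyp-13A1, lay under the array's lower quartile on all 12 arrays, and 19 lay above the array's median on all 12. The number of arrays limits the precision, and the median standard error (SE) of a member's difference between 2 groups was 0.32. Probe sets built on shared sequence (12 of 73 members) can also bind RNA of near-identical genes, and values of these members are uncertain in that respect. They are cyp-13B1, cyp-14A5, cyp-23A1, cyp-31A1, cyp-31A2, cyp-32A1, cyp-32B1, cyp-33C4, cyp-33C5, cyp-35C1, cyp-37A1 and cyp-42A1.

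The arrays numbered 3 differed from the others in each group. All 10 sperm markers and all 10 oocyte and eggshell markers were measured. A marker's shift is its value on array 3 minus the mean of arrays 1 and 2 of its group. The median of these shifts was positive in each group, at 1.33 to 4.42 for sperm and 0.71 to 3.10 for oocyte and eggshell. The yolk markers, normally of the adult intestine (4 of 5 measured), had summed levels of 12.2, 10.8 and 10.4 on the wildtype arrays at 4 µM and 8.17, 7.21 and 13.8 on the mutant arrays at 4 µM. At 20 µM the sums were 12.2, 11.3 and 12.3 in wildtype and 9.04, 7.61 and 12.6 in the mutant. Intestinal markers (7 of 8 measured) had summed levels of 13.7 to 14.3 on all 12 arrays and hypodermal markers (6 of 6) of 12.97 to 14.002. The median shift of the intestinal markers was negative in each group. It was -0.95 and -0.46 in wildtype and mutant at 4 µM and -0.35 and -0.24 at 20 µM. Molting markers (8 of 8) had median shifts of 0.37 and -1.58 in wildtype and mutant at 4 µM and of 0.67 and -0.41 at 20 µM. In the mutant at 4 µM their summed levels were 12.64, 12.45 and 10.85. With 0 probe sets annotated to hrg-2, the mutated gene itself gave no check of the genotype labels.

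**Figure D1:**
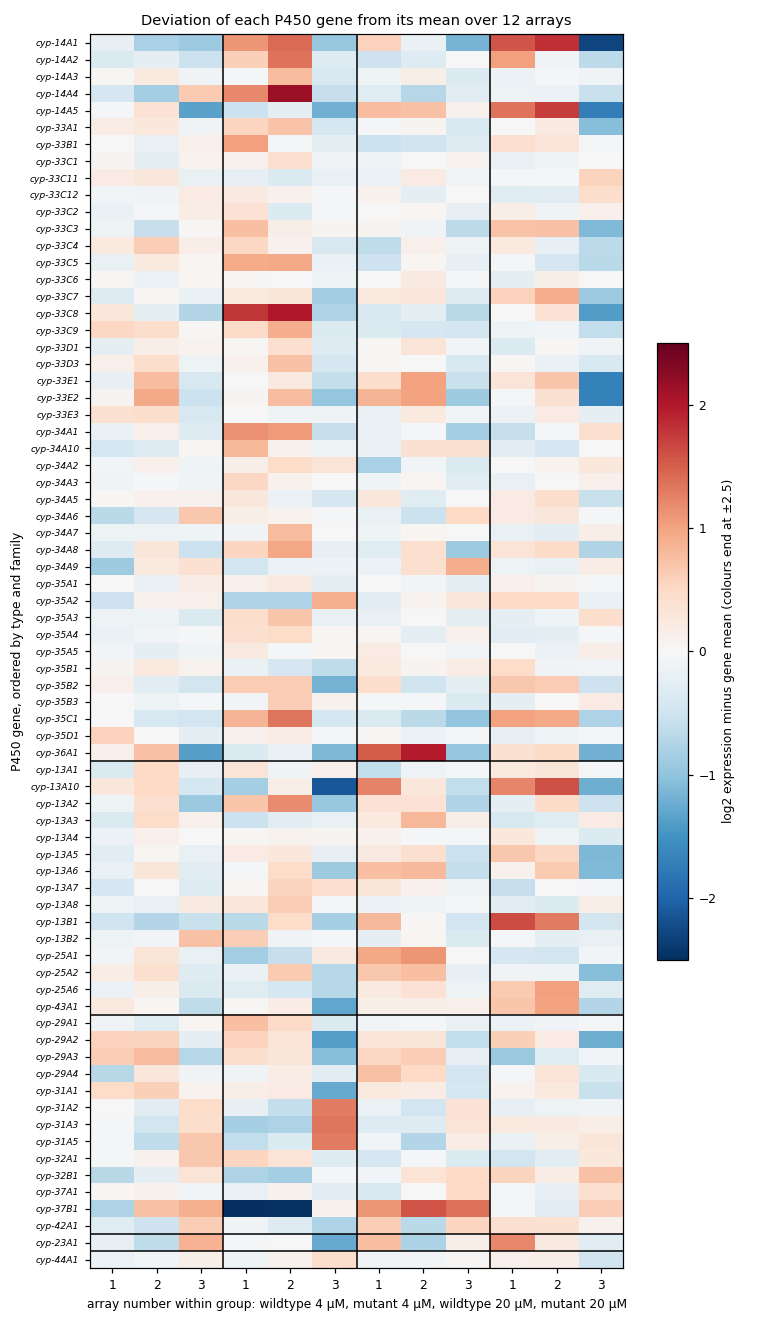
Deviation of each of the 73 P450 genes (rows, ordered by type and family) from its own mean over the 12 arrays (columns, 3 per group), on the log2 scale with colours ending at ±2.5. Many rows change colour between the columns numbered 2 and 3 of a group, and the deepest blue is cyp-37B1 on the mutant arrays 1 and 2 at 4 µM.

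At 4 µM heme no P450 gene passed the test for a difference between mutant and wildtype. By limma, with p-values adjusted over 22548 probe sets and a threshold of 0.05, 0 of 73 members were called, against a background of 0.00887% of all probe sets, and the lowest adjusted p of a member was 0.791. An unadjusted p under 0.05 was found for 4 members, and for 6.11% of all probe sets. In 7 members every mutant array lay above every wildtype array and in 2 every mutant array lay below, against 4.84% and 4.28% of all probe sets. The median difference, mutant minus wildtype, was 0.05 over the members and 0.03 over all probe sets. The CYP2-type genes had 29 positive and 14 negative differences (median 0.15), the CYP3-type genes 7 and 8, and the CYP4-type genes 4 and 9 (median -0.16). Over all probe sets 53.1% were positive. Oocyte and eggshell markers were higher in the mutant in 9 of 10 (median 0.415) and molting markers lower in 7 of 8 (-0.32). On arrays 1 and 2 alone both medians had the opposite sign (-0.30 and 0.33). In the other marker lists most markers were lower in the mutant. Their part in the results was not tested.

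Among CYP4-type genes the widest difference belonged to cyp-37B1. At 4 µM its values were 8.96, 10.46 and 10.62 in wildtype and 6.88, 7.25 and 9.84 in the mutant. Array 3 of the mutant lay within the wildtype range, so the groups overlapped. The difference was -2.03 ± 0.70 (SE; 95% interval -3.59 to -0.46), with an adjusted p of 0.791 by limma. It was negative in all 3 same-numbered pairs, at -2.08, -3.21 and -0.78. On the arrays numbered 1 and 2 alone it was -2.65 and passed by limma (adjusted p 0.0118). The summed yolk markers given above were low on the same mutant arrays as cyp-37B1 and high on array 3, while in wildtype at 4 µM the array lowest for cyp-37B1 was the highest for yolk. Their part in the result was not tested. RNA came from whole animals, and fewer cells of a type cannot be told apart from less RNA per cell.

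The CYP2-type gene cyp-33C8 read 7.96, 7.48 and 6.96 in wildtype and 9.49, 9.69 and 6.93 in the mutant at 4 µM. Mutant arrays 1 and 2 lay above all wildtype arrays, and mutant array 3 lay just below them. The difference was 1.24 ± 0.69 (limma, adjusted p 0.793). Without array 3 of each group it was 1.88 (adjusted p 0.00687), and on the pair numbered 3 it was -0.04.

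The neighbouring genes cyp-14A1, cyp-14A2, cyp-14A3 and cyp-14A4 had a median difference of 1.02 at 4 µM, with a range of 0.07 to 1.18. For cyp-14A1 wildtype read 6.15, 5.55 and 5.46 and the mutant 7.47, 7.79 and 5.42 (difference 1.18 ± 1.02, adjusted p 0.858). For cyp-14A4 wildtype read 2.97, 2.54 and 4.05 and the mutant 4.59, 5.54 and 2.83 (1.13 ± 0.60, adjusted p 0.791). In both genes the first 2 mutant arrays were the highest of the comparison and the mutant array 3 was the lowest or among the lowest. On the arrays numbered 1 and 2 alone both passed by limma, at 1.78 (adjusted p 0.0127) and 2.31 (adjusted p 0.00829). On the pair numbered 3 cyp-14A1 read 5.42 in the mutant and 5.46 in wildtype, and cyp-14A4 differed by -1.22. The difference of cyp-14A2 was 0.91 ± 0.46. That of cyp-14A3, a gene of low signal, was 0.07. The signal of cyp-14A4 was low too, with a mean of 3.395 over the 12 arrays, where the arrays' lower quartiles ran from 3.56 to 3.82.

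Smaller differences separated the groups array by array. The CYP3-type gene cyp-13A7, which is induced by the drug rifampicin in the worm, read 4.02, 4.44 and 4.12 in wildtype and 4.49, 5.00 and 4.86 in the mutant (0.59 ± 0.22, adjusted p 0.791). cyp-35B1, known in the worm as a gene controlled by insulin signalling, read 6.77, 6.96 and 6.80 in wildtype and 6.55, 6.30 and 6.09 in the mutant (-0.53 ± 0.20, adjusted p 0.791). cyp-35A4, of a subfamily tied to fat storage and the response to foreign compounds, read 3.11, 3.20 and 3.23 in wildtype and 3.68, 3.74 and 3.33 in the mutant (0.41 ± 0.17, adjusted p 0.791). The groups did not overlap in any of these, but none passed over all probe sets. The values of cyp-35A4 lie under the lower quartile of the arrays. The remaining non-overlapping members were cyp-33C3 (0.56 ± 0.46), cyp-34A7 (0.36 ± 0.23), cyp-35A5 (0.21 ± 0.16), the pseudogene cyp-34A3 (0.28 ± 0.18) and cyp-34A2, with higher values in the mutant, and cyp-33C11 (-0.35 ± 0.21), with lower ones. The difference of cyp-34A7 rested on mutant array 2, at 4.29 against 3.39 and 3.49, and was 0.07 without it. cyp-34A7 and cyp-33C11 were of low signal, with means of 3.49 and 3.46 over the 12 arrays. cyp-34A3 lies outside the rule for named genes and completes the count.

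**Figure D2:**
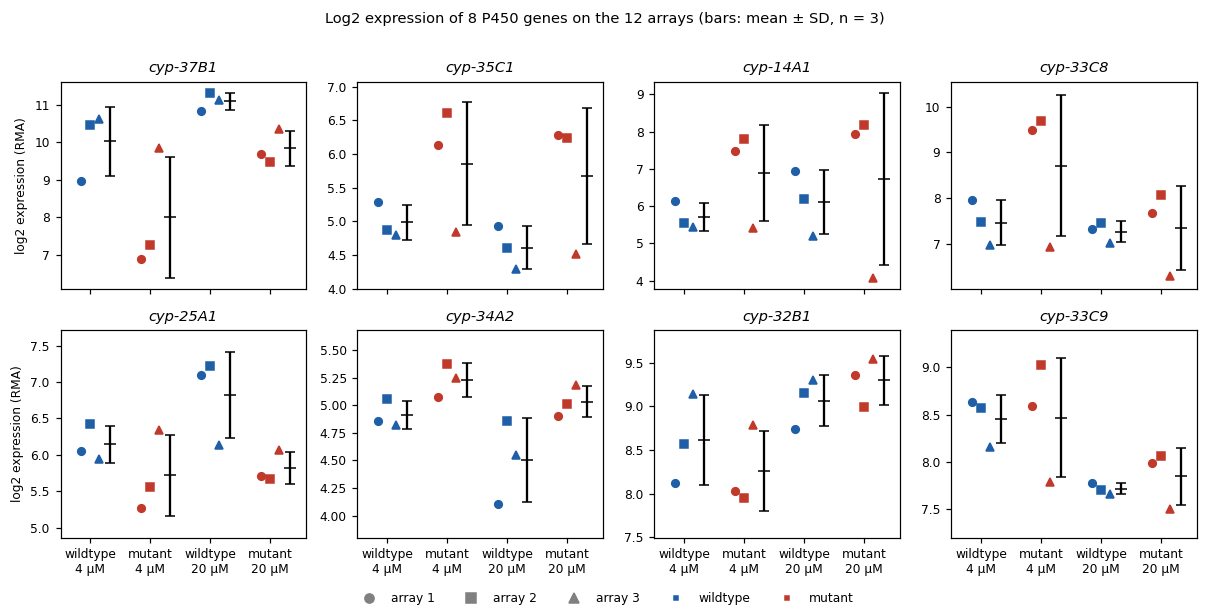
Log2 expression (vertical axis) of 8 P450 genes on the 12 arrays by group (horizontal axis), with circle, square and triangle for the arrays numbered 1, 2 and 3 and the mean ± SD of 3 arrays beside them. In cyp-35C1, cyp-14A1 and cyp-33C8 the mutant triangle sits near the wildtype values while the mutant circle and square lie above them at 4 µM, and in cyp-34A2 all mutant points lie above the wildtype points at each heme level.

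On arrays 1 and 2 alone, 10 members passed at 4 µM by limma, 8 higher in the mutant and 2 lower, where 5.18% of all probe sets were called higher and 7.78% lower. The higher genes were cyp-14A1, cyp-14A4, cyp-33C8, cyp-33C5 (0.92), cyp-34A1 (1.13), cyp-35A3 (0.69), cyp-35C1 (1.29) and the pseudogene cyp-29A1 (0.81). The lower genes were cyp-37B1 and cyp-25A1 (-0.83). On the pair numbered 3, 3 of these 10 genes kept their sign, a share of 30%, against 33.7% of the probe sets called in the same way. The calls on arrays 1 and 2 therefore describe those arrays only.

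At 20 µM heme 0 of 73 members passed between mutant and wildtype by limma, against 0.00443% of all probe sets, and the lowest adjusted p was 1. An unadjusted p under 0.05 was found for 3 members (cyp-25A1, cyp-34A2 and cyp-33B1), and for 1.68% of all probe sets. The groups did not overlap for 3 members higher in the mutant (3.03% of all probe sets) and 2 lower (3.69%). The median difference was 0.01 over the members and -0.01 over all probe sets. Higher in the mutant were 10 of 10 sperm (median 0.96), 7 of 8 molting (0.31) and 5 of 6 hypodermal markers (0.24). Lower were 6 of 7 intestinal (-0.28), 4 of 4 yolk (-2.39) and 3 of 3 body wall muscle markers (-0.08). Oocyte and eggshell markers were higher in 7 of 10 (0.12, but -0.09 on arrays 1 and 2 alone), and neuronal markers went both ways. The part of these markers in the results was not tested.

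The CYP3-type gene cyp-25A1 read 7.10, 7.22 and 6.14 in wildtype and 5.71, 5.67 and 6.07 in the mutant at 20 µM. All mutant arrays lay below all wildtype arrays, and the numbers 1 and 2 stood farther apart than the numbers 3. The difference was -1.003 ± 0.34 (95% interval -1.76 to -0.24), with an adjusted p of 1 by limma. With arrays 1 and 2 alone it was -1.47 and passed (adjusted p 0.0187), and on the pair numbered 3 it was -0.07. At 4 µM wildtype read 6.06, 6.43 and 5.95 and the mutant 5.27, 5.56 and 6.34 (-0.42 ± 0.34), where mutant array 3 lay within the wildtype range. Its neighbour cyp-25A2 differed by -0.83 ± 0.42 at 20 µM.

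cyp-37B1 was again lower in the mutant by its values: 10.84, 11.30 and 11.11 in wildtype and 9.67, 9.47 and 10.34 in the mutant. At 20 µM the groups did not overlap. The difference was -1.25 ± 0.70 (limma, adjusted p 1), and all 3 pairs were negative. The yolk sums of these arrays, given above, were lower on mutant arrays 1 and 2 and higher on mutant array 3.

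cyp-35C1, read by a shared-sequence probe set, is induced by foreign compounds in the worm. It lay higher on mutant arrays 1 and 2 at both heme levels. At 20 µM it read 4.93, 4.61 and 4.29 in wildtype and 6.29, 6.23 and 4.51 in the mutant (1.07 ± 0.53, adjusted p 1). At 4 µM it read 5.28, 4.88 and 4.80 in wildtype and 6.13, 6.61 and 4.84 in the mutant (0.87 ± 0.53, adjusted p 0.809). Mutant array 3 lay inside the wildtype range in both comparisons. The second probe set of cyp-35C1 gave 0.62 ± 0.375 at 20 µM, with overlapping groups. At 4 µM it gave 0.31 ± 0.375 (adjusted p 0.904 by limma), with all mutant arrays above all wildtype arrays. On the probe set used, without the arrays numbered 3, the difference at 20 µM was 1.49 (adjusted p 0.0274 by limma). cyp-35C1 and cyp-25A1 were the 2 members called on those arrays, where 0.572% of all probe sets were called higher and 0.648% lower.

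Other members separated at 20 µM were cyp-34A2, cyp-33B1 and cyp-13A1. cyp-33B1 read 3.04, 3.09 and 3.26 in wildtype and 4.00, 3.91 and 3.54 in the mutant (0.68 ± 0.30, adjusted p 1). Its mean over the 12 arrays, 3.58, was near the arrays' lower quartiles (3.56 to 3.82). cyp-13A1, of low signal, differed by 0.45 ± 0.26. Genes of eicosanoid synthesis, the oxidized fatty acids that act as signals, did not pass either. cyp-33E2, whose enzyme makes such lipids in the worm, differed by -0.76 ± 0.70, and cyp-29A3, with a like activity, by -0.74 ± 0.50. The difference of cyp-33E2 was -1.37 without wildtype array 3 and -0.145 without mutant array 3.

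The genotype difference averaged over both heme levels gave 0 calls among 73 members by limma (0.00887% of all probe sets), with a lowest adjusted p of 0.784 and 6 members at an unadjusted p under 0.05 (6.18% of all probe sets). Only 1 member, cyp-34A2, did not overlap at either heme level, in the higher direction, against 0.257% of all probe sets. It read 4.86, 5.05 and 4.82 in wildtype and 5.07, 5.38 and 5.24 in the mutant at 4 µM, and 4.10, 4.86 and 4.55 in wildtype and 4.90, 5.01 and 5.18 in the mutant at 20 µM. The mutant was higher in all same-numbered pairs, but the margin between the groups was narrow. The averaged difference was 0.43 ± 0.14, with an unadjusted p of 0.0146 and an adjusted p of 0.784 by limma. The other 5 members at an unadjusted p under 0.05 were cyp-37B1 (-1.64 ± 0.50), cyp-35C1 (0.97 ± 0.37), cyp-25A1 (-0.71 ± 0.24), cyp-13A3 (-0.49 ± 0.19) and cyp-33B1 (0.48 ± 0.21). With the replicate number as a block the lowest adjusted p of a member was 0.149, for cyp-37B1. Without the arrays numbered 3, 11 members passed, 7 higher (5.26% of all probe sets) and 4 lower (8.02%), of which 27.3% kept that sign on the pair numbered 3, against 42.7% of all probe sets so called.

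**Figure D3:**
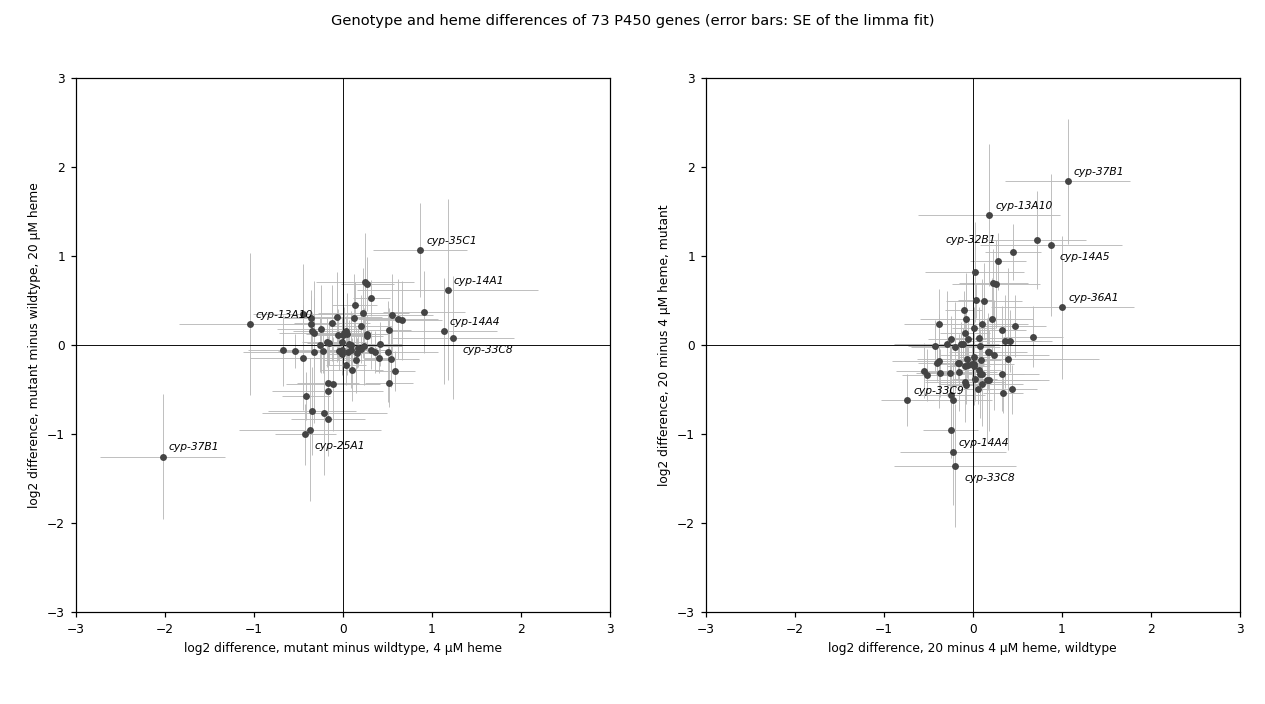
Log2 differences of the 73 P450 genes with the SE of the limma fit: left, mutant minus wildtype at 4 µM (horizontal) and at 20 µM (vertical), right, 20 minus 4 µM heme in wildtype (horizontal) and in the mutant (vertical). Most points lie within 1 log2 unit of 0 on each axis, and cyp-37B1 lies farthest out at lower left and at upper right.

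The genotype difference itself was compared between heme levels as the difference at 20 µM minus that at 4 µM. No member passed by limma (0 of 73, as 0% of all probe sets), and 3 had an unadjusted p under 0.05, against 1.65% of all probe sets. The smallest p belonged to cyp-13A7. At 20 µM it read 4.74, 4.55 and 4.32 in wildtype and 3.87, 4.45 and 4.42 in the mutant, so the mutant arrays, all above wildtype at 4 µM, overlapped wildtype at 20 µM. The difference between the effects was -0.88 ± 0.32 (unadjusted p 0.0195, adjusted p 1). For cyp-34A10 it was -0.94 ± 0.39 and for cyp-35A4 -0.55 ± 0.24. These comparisons share the same 12 arrays with those of each heme level and add no separate evidence. By smallest p, cyp-35B1 (0.47 ± 0.28), cyp-33C11 (0.50 ± 0.30), cyp-25A6 (0.66 ± 0.45), cyp-32B1 (0.59 ± 0.44) and cyp-13A10 (1.28 ± 1.13) were the positive members, and cyp-33C5 (-0.71 ± 0.44) and cyp-34A7 (-0.43 ± 0.33) followed the 3 negative ones.

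In wildtype, 0 of 73 members passed between 20 and 4 µM heme by limma, where 0.0355% of all probe sets were called (0.0665% with the replicate block). The lowest adjusted p of a member was 1, and 1 member had an unadjusted p under 0.05, against 1.39% of all probe sets. The groups did not overlap for 3 members higher at 20 µM (2.64% of all probe sets) and 3 lower (4.04%). The member with the unadjusted p under 0.05 was the CYP2-type gene cyp-33C9, which read 8.63, 8.57 and 8.16 at 4 µM and 7.78, 7.70 and 7.67 at 20 µM. All arrays at 20 µM lay below all arrays at 4 µM, and the difference was -0.74 ± 0.30 (limma, adjusted p 1). cyp-33C4 (-0.55 ± 0.31) and cyp-33B1 (-0.43 ± 0.30) were the other 2 lower genes without overlap. The higher genes were cyp-37B1 (1.06 ± 0.70), cyp-13B1 (0.72 ± 0.55, second probe set 0.49) and cyp-34A7 (0.11 ± 0.23). The CYP3-type genes had 12 positive and 3 negative differences, with a median of 0.26. Over all probe sets 49.1% were positive and the median was -0.01. In the mutant the CYP3-type genes had 8 positive and 7 negative differences, with a median of 0.04. On arrays 1 and 2 alone 0 members passed for heme in wildtype, where 0.12% of all probe sets were called higher and 0.124% lower.

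In the mutant, 0 of 73 members passed between 20 and 4 µM by limma, where 0.0399% of all probe sets were called (0.0798% with the block). The lowest adjusted p of a member was 0.769, and 7 members had an unadjusted p under 0.05, against 6.16% of all probe sets. The groups did not overlap for 4 members higher at 20 µM (4.87% of all probe sets) and 3 lower (4.47%). The median difference was -0.13 over the members and -0.05 over all probe sets. The CYP2-type genes had 13 positive and 30 negative differences, with a median of -0.20, where 44% of all probe sets were positive. In wildtype the CYP2-type genes had 21 positive and 22 negative differences, with a median of -0.05.

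The smallest p in the mutant belonged to the CYP4-type gene cyp-32B1, read by a shared-sequence probe set. It read 8.03, 7.95 and 8.79 at 4 µM and 9.36, 8.99 and 9.54 at 20 µM. All arrays at 20 µM lay above all arrays at 4 µM. The difference was 1.04 ± 0.32 (95% interval 0.34 to 1.74), with an unadjusted p of 0.00763 and an adjusted p of 0.769 by limma (0.169 with the replicate block), and it was positive in all 3 pairs. In wildtype it read 8.12, 8.57 and 9.14 at 4 µM and 8.74, 9.16 and 9.30 at 20 µM, a difference of 0.45 ± 0.32 with overlapping groups. The test of the difference between these 2 effects, given above, had an adjusted p of 1.

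cyp-37B1 differed by 1.84 ± 0.70 in the mutant (adjusted p 0.799), from the values given above, and its groups overlapped through mutant array 3 at 4 µM. The other members without overlap were cyp-42A1 (0.69 ± 0.39, read by a shared-sequence probe set), cyp-35B1 (0.50 ± 0.20) and cyp-33C11 (0.40 ± 0.21), with higher values at 20 µM, and cyp-13A7 (-0.54 ± 0.22), cyp-35A4 (-0.49 ± 0.17) and cyp-35D1 (-0.20 ± 0.20), with lower ones. The second probe set of cyp-42A1 gave 0.34 ± 0.25 with overlapping groups, and -0.01 and -0.02 on the first 2 pairs. cyp-35D1, whose enzyme oxidizes the anthelmintic drug thiabendazole, differed by about its SE. cyp-13A7, cyp-35A4, cyp-35B1 and cyp-33C11 were also without overlap between genotypes at 4 µM, and both comparisons contain the mutant arrays at 4 µM. cyp-33C5 (-0.96 ± 0.31) and cyp-25A6 (0.94 ± 0.32) had unadjusted p of 0.0115 and 0.0137 with overlapping groups.

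Wide differences in the mutant with overlapping groups were found for cyp-33C8 (-1.35 ± 0.69), cyp-14A4 (-1.21 ± 0.60), cyp-13A10 (1.46 ± 0.80) and cyp-14A5 (1.12 ± 0.80). cyp-13A10 read 4.86, 5.88 and 3.58 at 4 µM and 6.93, 7.29 and 4.48 at 20 µM, where array 3 was the lowest of its group at each level. cyp-14A5 read 6.44, 6.74 and 5.77 at 4 µM and 8.34, 8.71 and 5.25 at 20 µM, with array 3 again lowest. Arrays 1 and 2 alone gave 20 members that passed by limma, 9 higher at 20 µM and 11 lower, where 7.46% of all probe sets were called higher and 6.59% lower. On the pair numbered 3, 10 of these 20 kept their sign, a share of 50%, against 34.8% of all probe sets so called. Sperm markers differed between the mutant groups by a median of 1.33 over all arrays, with 10 of 10 higher at 20 µM. All molting (8, median 0.72), hypodermal (6, median 0.295) and body wall muscle markers (3, median 0.33) were higher too. Oocyte and eggshell markers were lower in 9 of 10 (median -0.27), and intestinal, yolk and neuronal markers went both ways. On arrays 1 and 2 alone the oocyte and eggshell median had the opposite sign (0.40). The other medians there were 2.275 for sperm, 0.20 for molting, 0.20 for hypodermal and 0.32 for body wall muscle markers. The part of these markers in the results was not tested.

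cyp-13B1 has 2 probe sets, both of the shared-sequence kind, and both read higher at 20 µM. That of highest mean read 4.00, 5.13 and 3.84 at 4 µM and 6.31, 5.97 and 4.22 at 20 µM in the mutant, a difference of 1.18 ± 0.55 with overlapping groups. The second probe set, named after its values were seen, gave 1.43 ± 0.43 without overlap (adjusted p 0.769 by limma).

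The heme difference averaged over genotypes gave 0 calls among 73 members (0.0665% of all probe sets, and 0.155% with the block), a lowest adjusted p of 0.81 and 6 members at an unadjusted p under 0.05, against 5.28% of all probe sets. No member was without overlap in both genotypes, nor were many other probe sets (0.217% higher and 0.386% lower). The 6 members were cyp-32B1 (0.75 ± 0.22), cyp-33C9 (-0.68 ± 0.21), cyp-37B1 (1.45 ± 0.50), cyp-33C5 (-0.60 ± 0.22), cyp-25A6 (0.61 ± 0.22) and cyp-13B1 (0.95 ± 0.39). Each of these 6 had the same sign in all 3 averaged pairs. Without the arrays numbered 3, 12 members passed, 8 higher (4.34% of all probe sets) and 4 lower (4.13%), and 75% of the 12 kept their sign on the pair numbered 3, against 41.4% of all probe sets so called.

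Each member's value on array 3 was compared with the mean of arrays 1 and 2 of its group. Shifts of the same sign in all 4 groups were common over all probe sets too. On array 3, 23 members (31.5%) were lower than the mean of arrays 1 and 2 in all 4 groups, against 22.2% of all probe sets, and 5 (6.85%) were higher in all 4, against 14.2%. The lowest mean shifts belonged to cyp-14A1 (-1.99), cyp-36A1 (-1.76), cyp-13A10 (-1.66), cyp-14A5 (-1.56) and cyp-33E2 (-1.53). The CYP3-type genes were lower in all 4 groups for 7 of 15 members and higher in none, and the CYP4-type genes were higher in all 4 for 4 of 13. No test was made of these shifts. Of the markers given above, the intestinal ones had a negative median shift in all 4 groups, and the molting ones only in the mutant. The intestinal sum was highest on array 3 in the mutant at 20 µM (13.96, 14.03 and 14.04) and lowest on array 3 in the other groups. The part of these markers in the P450 shifts was not tested.

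cyp-33E2 and cyp-36A1 illustrate the lower values on array 3. For cyp-33E2 array 3 read 7.27 and 6.93 in wildtype and 6.84 and 6.13 in the mutant, at 4 and 20 µM, while arrays 1 and 2 ran from 7.79 to 8.82. For cyp-36A1, which in the worm acts downstream of the oxygen-sensing genes egl-9 and hif-1, array 3 ran from 3.84 to 4.26 and arrays 1 and 2 from 4.88 to 7.18. In both genes every array numbered 3 lay below every array numbered 1 or 2.

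The highest mean shifts belonged to cyp-37B1 (1.12), cyp-31A5 (0.93), cyp-31A3 (0.85), cyp-31A2 (0.76) and cyp-32B1 (0.58). cyp-31A2 and cyp-31A3 encode P450s that act in the germ line to form the lipid barrier of the eggshell. cyp-31A3 read 6.38, 5.96 and 6.87 in wildtype and 5.601, 5.66 and 7.76 in the mutant at 4 µM, and 6.11, 6.10 and 6.76 in wildtype and 6.67, 6.64 and 6.59 in the mutant at 20 µM. Array 3 was thus the highest in 3 of 4 groups, and most so in the mutant at 4 µM. The oocyte and eggshell markers had their widest median shift in that same group, at 3.10, against 0.71 to 1.23 in the other groups. Their part in the cyp-31A values was not tested. The pseudogene cyp-31A1, whose probe set is of the shared-sequence kind, was lower on array 3 in all 4 groups.

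**Figure D4:**
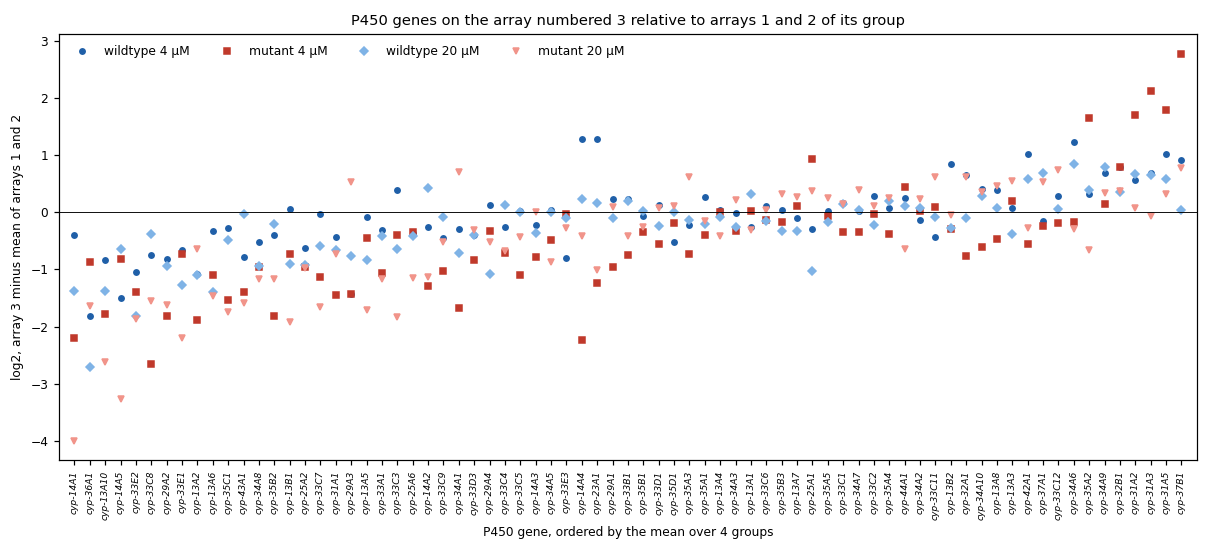
Log2 value of each of the 73 P450 genes on array 3 minus the mean of arrays 1 and 2 of its group (vertical axis), with 4 symbols per gene for the 4 groups and genes ordered by their mean shift (horizontal axis). More genes lie below 0 than above in all 4 groups (23 against 5), from cyp-14A1 at the left to cyp-37B1 at the right.

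Further members were described by their range over the arrays. cyp-44A1, the mitochondrial-type gene, lay between 6.16 and 7.10 on all 12 arrays, and its group means were 6.64 ± 0.15, 6.81 ± 0.27, 6.63 ± 0.06 and 6.60 ± 0.38 (SD, n = 3) for wildtype and mutant at 4 µM and wildtype and mutant at 20 µM. The 95% interval of its genotype difference at 4 µM was -0.31 to 0.65. cyp-37A1 lay between 9.08 and 9.96 on all 12 arrays. The fat-storage genes of the cyp-35A subfamily were of low signal in part, with cyp-35A1 between 2.26 and 2.72 and cyp-35A5 between 3.52 and 3.97. cyp-35A2 was brighter and read 5.19, 5.17 and 6.83 in the mutant at 4 µM against 5.43, 6.06 and 6.07 in wildtype, with array 3 again apart. cyp-43A1 lay between 7.24 and 9.54 and cyp-23A1 between 5.45 and 7.92, with no group clear of another.

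Position on the chromosome was described from the order of genes in RefSeq. With at most 2 other genes between neighbours, 12 clusters held 42 of the 73 members, and the largest counted 10 genes, from cyp-35A5 through the cyp-35B and cyp-34A genes. In that cluster the genotype differences at 4 µM ran from -0.53 to 0.62, and in the cluster of 9 cyp-13A genes, 8 of them measured, from -0.41 to 0.59. Both ranges span 0. The cyp-14A cluster given above had 4 positive differences of 4 at 4 µM, and at 20 µM its median was 0.26. On the pair numbered 3 at 4 µM the mutant was lower for cyp-14A1, cyp-14A3 and cyp-14A4 and higher for cyp-14A2. cyp-14A5, outside this cluster, differed by -0.325 at 4 µM.

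Genes that work with P450s did not pass either. Of the 32 listed partners, regulators and substrate genes all 32 were measured, and 0 were called in any of the 7 comparisons by limma. Between genotypes, an unadjusted p under 0.05 was found for 0 of them at 4 µM (6.11% of all probe sets) and 3 at 20 µM (1.68%). Between heme levels it was found for 1 in wildtype (1.39% of all probe sets) and 2 in the mutant (6.16%). emb-8, which encodes the P450 reductase that passes electrons to the microsomal enzymes, read 9.61, 9.71 and 8.92 in wildtype and 9.62, 9.47 and 9.45 in the mutant at 4 µM. At 20 µM it read 10.11, 10.18 and 9.39 in wildtype and 9.82, 10.22 and 9.34 in the mutant. The genotypes overlapped at each heme level, and the 95% interval of the averaged genotype difference was -0.47 to 0.48. daf-9, a P450 named outside the standard form that makes the steroid hormone dafachronic acid, differed by -0.97 ± 0.74 at 4 µM and -0.52 ± 0.74 at 20 µM, and was negative in all 3 pairs at each level. Its array 3 was the lowest of its group in all 4 groups.

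The 3 partners with an unadjusted p under 0.05 between genotypes at 20 µM were elt-2, the intestinal GATA factor (-1.17 ± 0.37), cytb-5.2, a cytochrome b5 (0.50 ± 0.19), and fat-1, the omega-3 desaturase that supplies eicosanoid substrates (0.38 ± 0.17). egl-9, the oxygen-sensing prolyl hydroxylase upstream of cyp-36A1, read higher at 20 than at 4 µM heme by 0.96 ± 0.43 in wildtype and 1.33 ± 0.43 in the mutant. Averaged over genotypes the difference of egl-9 was 1.14 ± 0.30 (adjusted p 0.739 by limma). Its groups did not overlap in wildtype. In the mutant they overlapped, and the pair numbered 3 was negative (-0.14). cyp-36A1 itself differed by 1.01 ± 0.80 in wildtype, from 5.35, 5.97 and 3.84 at 4 µM to 6.74, 7.18 and 4.26 at 20 µM. Each same-numbered pair of cyp-36A1 was higher at 20 µM in wildtype, while the groups overlapped through array 3. In the mutant the difference was 0.42 ± 0.80, and its pair numbered 3 was negative (-0.09). Leaving out 1 array moved the wildtype difference between 0.40 (without array 3 at 4 µM) and 1.91 (without array 3 at 20 µM).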

How the data were processed

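Each deposited value is the log2 expression of a probe set on an array. Per the submitters' processing notes, the authors used RMA (background subtraction, normalization between arrays and summary of probes) in Partek 6.5. The sources used here give no further settings. Per the labels' protocols, RNA was isolated with a column kit and labelled with biotin. Of 22625 probe sets, 77 controls were left out. Gene names came from the platform annotation, checked against RefSeq (WBcel235). Of the rest, 20810 probe sets carry 1 symbol, 843 several and 895 none.

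A model of 4 group means was fitted to the 12 arrays by lmFit and eBayes of limma 3.58.1 under R 4.3.3, with two-sided tests and 8 residual and 2.24 prior degrees of freedom, and with Benjamini-Hochberg adjustment over 22548 probe sets. Errors of differences are SEs and those of group means SDs. A group pair does not overlap where all arrays of 1 group lie above all of the other.

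The members, gene lists and tests were chosen with earlier results of these data known. Named are members without overlap (up to 5 per direction and comparison), those of smallest p for the difference between effects, those of widest array 3 shift, members of known role, and further members with an unadjusted p under 0.05 or wide differences, picked with their values in view. The listed members cyp-13A12 and cyp-34A4 have no value here. Marker and partner genes entered by their probe set of highest mean.

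Deviations from the group means correlated between same-numbered arrays in all 18 pairs (r between 0.101 and 0.817, taken over probe sets, which share arrays), so the replicate number was tried as a block. Between numbers 1 and 2 of different groups r ran from -0.001 to 0.606, and the shared shift of the arrays numbered 3 enters these values. The labels do not state a pairing. Alternatives were the block, median centring, repeated quantile normalization, a filter on dim probe sets, the compared groups alone, each array left out, the arrays numbered 1 and 2 alone, and the mean over a gene's probe sets.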

Additional observations from a re-analysis of the deposited data

How the results depend on the processing

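Of the 73 members, 0 passed in each of the 7 comparisons with the replicate block, median centring, repeated quantile normalization, the filter on dim probe sets (31 members kept), the mean over probe sets, the compared groups alone, and every fit without 1 array (0 to 0). Without the arrays numbered 3 the members called were 10 for genotype at 4 µM, 2 at 20 µM, 11 averaged, 20 for heme in the mutant and 12 for heme averaged, and 0 for heme in wildtype and for the difference between effects; the cause was not tested. Of 75 differences of named genes, 29 passed there by limma and 0 reversed. These differences were picked from data that include the same arrays, partly with values in view, so both counts add no separate evidence. The shares of all probe sets called on those arrays are given above for the genotype and heme comparisons. The block changed no member's call. Of the 75 differences, 42 moved by over 1.5 times in at least 1 fit without 1 array. Among the 900 values of such fits 3 reversed, none past the threshold. cyp-14A1, genotype at 20 µM, ran from -0.105 (without mutant 20 µM replicate 2) to 1.953 (without mutant 20 µM replicate 3). cyp-35B1, heme in wildtype, was -0.003 without wildtype 4 µM replicate 1, and its range was -0.006 (without wildtype 20 µM replicate 1) to 0.093 (without wildtype 4 µM replicate 2). Signal near the floor limits the 11 members under the lower quartile on all arrays.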

Other observations

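Read by same-numbered pairs, 12 members were higher and 12 lower in the mutant in all 3 pairs at 4 µM heme, against 14.6% and 15% of all probe sets. At 20 µM 7 were higher and 10 lower in all 3, against 13.5% and 15.6%. For heme in wildtype 14 were higher and 15 lower at 20 µM in all 3 pairs, against 13.4% and 15.9% of all probe sets, and in the mutant 10 and 12, against 13.6% and 14.7%. Over the members, the median log2 value of an array lay from 4.62 to 5.69, and in each group the array numbered 3 had the lowest of these medians.

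daf-36, which encodes a Rieske oxygenase that starts dafachronic acid synthesis, read 8.26, 8.89 and 6.91 in wildtype and 7.27, 7.59 and 6.83 in the mutant at 4 µM. At 20 µM it read 8.68, 8.57 and 6.39 in wildtype and 7.72, 7.87 and 6.24 in the mutant. The mutant was lower in each same-numbered pair at both levels, and array 3 was the lowest of its group throughout, so the groups overlapped.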
